A study of Mus musculus with 9 samples.

Results

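The glycolytic enzymes, the enzymes of the pentose phosphate pathway and the genes of the hypoxia response were analysed in RiboSeq data of mouse macrophages. The 37 genes were chosen by name for their place in these pathways, and all 37 were found among the 16921 gene identifiers of the deposited table. They fell into 7 roles, namely glucose uptake and hexokinases (4 genes), upper glycolysis (8), lower glycolysis (6), lactate (4), pyruvate dehydrogenase and its kinases (4), the HIF pathway and hypoxia (7) and the pentose phosphate pathway (4).

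RiboSeq counts the fragments of mRNA that ribosomes protect from nuclease, so a count follows both the amount of an mRNA and its translation, which cannot be told apart here. The cells of every group were bone marrow-derived macrophages without the Zfp36 gene product TTP. They had been differentiated with M-CSF, immortalized with human c-Myc and hRasG12V, and selected as positive for CD11b and F4/80. Each group was 1 transduced line that carried a tet-inducible vector for GFP alone (GFP-only), for GFP-TTP, or for GFP-TTP-AA, in which the serines phosphorylated by the kinase MK2 were changed to alanine (S52A and S178A). All groups received 1 µg/ml doxycycline for 6 h and 1 µg/ml LPS for 1 h, and each had 3 libraries that the series' design calls biological replicates, 9 in all. Line and expressed protein cannot be told apart, since each protein was expressed in a line of its own. All groups carried Myc and Ras, oncogenes known to raise the expression of glycolytic genes, and all were measured after LPS.

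The deposited values are counts fitted by the authors' model, not observed counts. Each is the product of a library factor, a condition term and a replicate term, and after removal of these terms the log2 values had a residual SD of 1.33e-15. The 3 values of a condition therefore show the replicate term and no scatter, a fold change is the same in each replicate by construction, and separation of the values of 2 groups is no measure of error. The error comes from the standard errors in the authors' comparison tables. Library sums of the fitted values ran from 2570292 to 12804501, and all values below were divided by the size factor of the library. Zfp36 itself had levels of 459 in GFP-only macrophages, 927 in the GFP-TTP line and 1535 in the GFP-TTP-AA line. Both TTP lines were higher than GFP-only (log2 fold change 1.01, SE 0.25, adjusted p = 0.0048, and 1.74, SE 0.25, adjusted p = 2.37e-09; Wald test with Benjamini-Hochberg adjustment), and GFP-TTP-AA was higher than GFP-TTP (0.73, SE 0.25, adjusted p = 0.040).

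Glycolysis breaks glucose down to pyruvate, which is turned into lactate or enters mitochondria through pyruvate dehydrogenase, while the pentose phosphate pathway draws on glucose 6-phosphate to make NADPH and ribose. Many of these steps are carried by isozymes from separate genes. The transcription factor HIF-1 binds hypoxia response elements with the core ACGTG and drives many of them, and macrophages activated by LPS are known for raised glycolysis. TTP binds AU-rich elements with the core TATTTAT in 3′UTRs and recruits factors that shorten and degrade the mRNA, and its phosphorylation by MK2 reduces this activity.

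The sequences that bear on both kinds of regulation were read from the reference. TATTTAT, searched on the transcribed strand with overlapping matches counted, occurred in the annotated 3′UTR (GENCODE vM21, 1 transcript per gene) of 13 of 37 members (35.1%), against 28.7% of 9890 genes with a normalised mean of at least 10. The median 3′UTR length was 1079 nt among the members and 1026 nt among those genes. The shorter ATTTA occurred in 24 members (64.9%), against 68.2%. Eno2 held a run of 10 overlapping matches, Hif1a and Ero1l held 3 each, Hk2, Pfkp and Pfkfb3 held 2 each, and Slc2a1, Pfkm, Pgk1, Slc16a3, Pdk1, Egln3 and P4ha1 held 1 each. The annotated transcript used for Vegfa has a 3′UTR of only 27 nt, so its longer 3′UTRs were not searched. A match is a stretch of letters and not a shown binding site. The windows below are those of the members that passed a test in the comparisons further on, and of Hif1a, which passed in none, with TATTTAT in capitals, 5′ to 3′ on the transcript (GRCm38).
Hk2, chr6:82726565-82726589, minus strand: taagtaatgTATTTATatgttcctt
Hk2, chr6:82725903-82725927, minus strand: tatacgagtTATTTATtccagactg
Pfkm, chr15:98132341-98132365, plus strand: aataagcttTATTTATttctttgtg
Eno2, first match, chr6:124760773-124760797, minus strand: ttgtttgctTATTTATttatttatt
Eno2, last match, chr6:124760737-124760761, minus strand: ttatttattTATTTATttctcagct
Egln3, chr12:54179142-54179166, minus strand: tcatgtcctTATTTATtttgtttat
Hif1a, chr12:73946007-73946031, plus strand: gcaccttttTATTTATttatttttg
Pgam1, the remaining member that passed a test, had no TATTTAT and no ATTTA in its 3′UTR of 885 nt. The match of Pfkm began 290 nt after the stop codon, those of Hk2 at 729 and 1391 nt, the run of Eno2 at 504 nt, and that of Egln3 at 1466 nt.

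The letters ACGTG, searched on both strands of RefSeq promoters of 300 bases around the start site (GRCm38.p6), were present for 25 of 37 members (67.6%). Of 7744 genes with a normalised mean of at least 10 and a listed promoter, 30.8% held them, and of all 32851 promoters 19.6%. Where a site reads CACGTG, both strands match and overlap. Ldha had the most matches in 1 promoter (5), followed by Slc16a1, Hif1a and Pfkm (3 each), while Eno2, Eno1, Tpi1, Gpi1, Pfkl, Pfkp, Pdk1, Pdha1, Ldhb, Pgd, Taldo1 and Tkt had none. The windows below show 1 match each for Ldha, which carries the most, and for the 4 members that passed a test and hold the letters, with the match in capitals (CACGT where it lies on the opposite strand).
Ldha, chr7:46845747-46845771, plus strand: cccagcctacACGTGggttcccgca
Hk2, chr6:82774492-82774516, minus strand: tgagcacatcCACGTcactgtccgg
Pfkm, chr15:98092444-98092468, plus strand: taagtatgccACGTGaagtaagtaa
Pgam1, chr19:41911747-41911771, plus strand: ctccttgcttACGTGcgctccgtga
Egln3, chr12:54204089-54204113, minus strand: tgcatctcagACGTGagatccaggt
Relative to the start site these matches lay at position -47 (Ldha), -52 (Hk2), -135 (Pfkm), -114 (Pgam1) and -229 (Egln3).

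The members spanned a wide range of levels. Per kb of coding length, Pkm, the last enzyme of glycolysis, was highest with a mean of 28094 normalised fitted counts. It was followed by Aldoa (9318), Tpi1 (8812), Ldha (8053), Eno1 (5282) and Gapdh (3458). The enzymes of the pentose phosphate pathway stood close behind, with Tkt at 3313, Pgd at 2963, Taldo1 at 2953 and G6pdx at 2339. The HIF pathway genes were lower, from 752 for P4ha1, which hydroxylates collagen prolines, to 51.9 for Egln1, an oxygen sensor that marks HIF for degradation. Hif1a itself stood at 407. Eno2 (43.1) and Ldhb (6.66) were the lowest of the 37.

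Within the isozyme families 1 gene dominated in some and none in others. Aldoa exceeded Aldoc (794) in level per kb, Eno1 exceeded Eno2, and Ldha exceeded Ldhb, in each condition. By contrast the hexokinases Hk3 (582), Hk1 (522) and Hk2 (469) lay close together, as did Pfkp (686) and Pfkl (517), with Pfkm at 178. The lactate carriers Slc16a1 (1107) and Slc16a3 (1073) were nearly level. Pdk1 (653) lay above Pdk3 (142), and Egln3 (197) above Egln1. These are levels between genes, which the fitted values allow no test of.

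**Figure D1:**
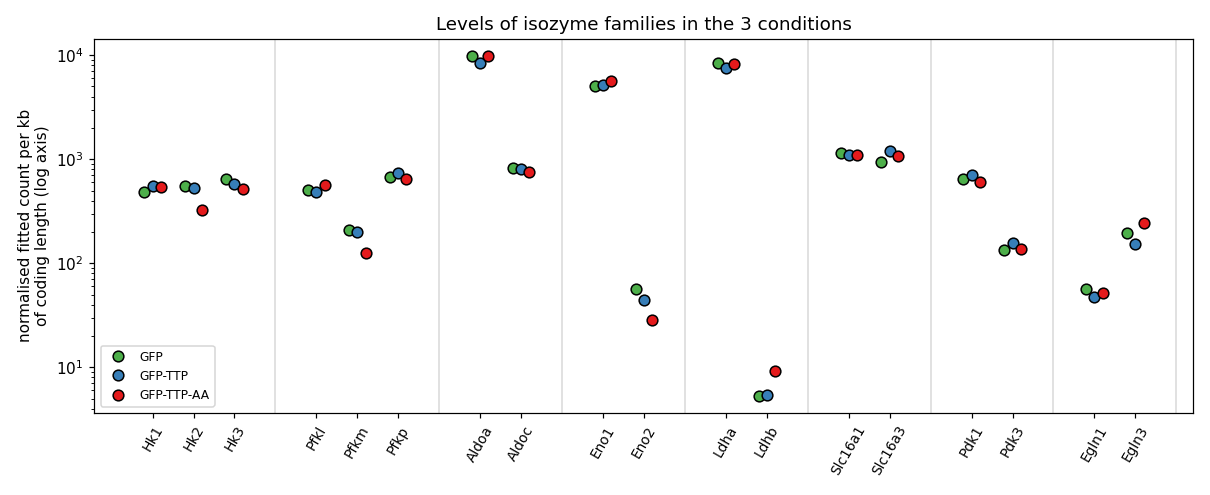
Level per kb of coding length (log axis) of each isozyme in GFP, GFP-TTP and GFP-TTP-AA macrophages, 1 point per condition. Hk2, Pfkm and Eno2 have their lowest point in GFP-TTP-AA, as do Hk3, Pfkp, Aldoc, Slc16a1 and Pdk1. Hk2 was at 557 per kb in GFP-only and at 322 in GFP-TTP-AA.

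Several abundant members share coding sequence with other places in the genome, and the authors' mapping kept up to 2 alignments of each read. Of all 28-base words in the coding sequence, 100% of those of Gapdh, Pgam1 and Pgk1 occurred again outside the gene in GRCm38, and 90.5% of those of Eno1, 87.5% of Bnip3, 79.9% of Pkm and 67.4% of Ldha. The share exceeded 10% for 14 of 37 members and was under 1% for 22. Of the members that passed a test, Hk2, Pfkm, Eno2 and Egln3 had 0%. The values of Gapdh, Pgam1 and Pgk1 are thus uncertain, since their footprints could have been assigned to copies or lost.

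The first comparison, of macrophages with wild-type GFP-TTP against GFP-only cells, asks what TTP changes 1 h after LPS. None of the 36 tested members passed the threshold (adjusted p below 0.05, Wald test with Benjamini-Hochberg adjustment over all tested genes). Over all 9938 genes tested 2.1% passed, 0.815% as higher and 1.29% as lower. At an unadjusted p below 0.05 there was 1 member, Slc16a3, the lactate exporter of glycolytic cells, with a log2 fold change of 0.37 (95% interval 0.05 to 0.69, adjusted p = 0.32). The largest difference was that of Vegfa, the angiogenic growth factor, at -0.41 (SE 0.24, adjusted p = 0.56). For 30 of 36 members the difference lay within 0.25. The median over the members was 0.01, beside 0.00 over all genes. Ldhb was left out because its normalised mean of 6.71 was below the minimum of 10.

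By role, the values that did not pass lay as follows, and no difference between roles was tested. Over all genes 5034 of 9938 had values above 0. All 4 genes of pyruvate dehydrogenase and its kinases had values above 0 in GFP-TTP against GFP-only, from 0.13 for Pdk1 to 0.23 for Pdk3. All 4 pentose phosphate genes also had values above 0, with G6pdx, which commits glucose 6-phosphate to the pathway, at 0.30 (95% interval -0.02 to 0.63). In lower glycolysis 5 of 6 values lay above 0, in upper glycolysis 2 of 8, among glucose uptake and hexokinases 2 of 4 and for lactate 1 of 3. Of the 7 HIF pathway genes 6 had values below 0, and Hif1a had 0.04 (95% interval -0.26 to 0.34).

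In GFP-TTP-AA against GFP-only, 3 of 36 members were lower and none was higher. These were the hexokinase Hk2, the phosphofructokinase Pfkm and the enolase Eno2, each 1 isozyme of its step. Of all 10103 genes tested 3.02% passed, and 1.28% of all genes tested were lower. With size factors set to match the authors' base means, 77.2% of all genes called in this comparison were higher instead of 57.7%, the same 3 members passed as lower, and Pgam1 passed as higher (0.51, adjusted p = 0.019). The median over the members was 0.01, beside 0.00 over all genes.

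Hk2 phosphorylates glucose on entry and is the hexokinase known for its induction in activated and transformed cells. Its normalised fitted counts were 1708, 1662 and 1269.8 in GFP-only macrophages. They were 1629, 1581 and 1205 in the GFP-TTP line and 990.4, 958 and 732 in the GFP-TTP-AA line. The log2 fold change of GFP-TTP-AA against GFP-only was -0.79 (SE 0.15, 95% interval -1.09 to -0.49, adjusted p = 4.66e-05), a level 42.2% lower. The other hexokinases did not pass, with Hk1 at 0.17 (adjusted p = 0.70) and Hk3 at -0.33 (adjusted p = 0.25). Whether Hk2 differs from them in its change was not tested. The glucose carrier Slc2a1 was at -0.21 (95% interval -0.52 to 0.10).

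Pfkm encodes the muscle isozyme of phosphofructokinase, which commits sugar to glycolysis. Its values were 493, 544 and 434 in GFP-only macrophages. They were 477, 525 and 419 in the GFP-TTP line and 296, 325 and 259.6 in the GFP-TTP-AA line. The log2 fold change against GFP-only was -0.74 (SE 0.16, 95% interval -1.05 to -0.43, adjusted p = 0.00040). The more abundant Pfkl and Pfkp had 0.13 (95% interval -0.20 to 0.46) and -0.05 (95% interval -0.37 to 0.27). Pfkfb3, which makes the activator of phosphofructokinase, had 0.14 (adjusted p = 0.83).

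Eno2 encodes the neuronal isozyme of enolase. Its values were 67.2, 78.6 and 74.0 in GFP-only macrophages, 53.6, 62.5 and 58.7 in the GFP-TTP line and 34.5, 40.1 and 37.7 in the GFP-TTP-AA line. The fitted level was thus highest in GFP-only, lower in GFP-TTP and lowest in GFP-TTP-AA. GFP-TTP-AA was lower than GFP-only by a log2 fold change of -0.97 (SE 0.23, 95% interval -1.42 to -0.52, adjusted p = 0.0027), and the step from GFP-only to GFP-TTP did not pass (-0.33, SE 0.23, adjusted p = 0.64). Eno1, which held most of the enolase level, was at 0.19 (95% interval -0.09 to 0.46). Eno2 is the member with the run of TATTTAT shown above.

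**Figure D2:**
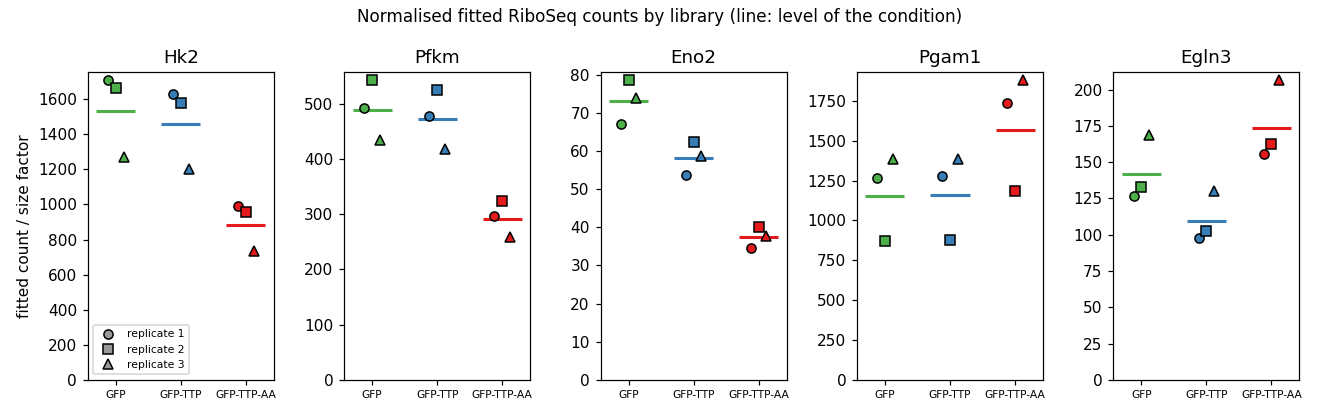
Fitted count divided by the size factor of the library (linear axis from 0) in the 9 libraries for the 5 members that passed a test, with replicates 1, 2 and 3 as circle, square and triangle and the level of the condition as a line. The GFP-TTP-AA values of Hk2 (732 to 990.4), Pfkm and Eno2 lie below all others. The same replicate order recurs in each condition because the values are fitted, so a gap between groups is no measure of error.

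Of the remaining members, Pgam1, the phosphoglycerate mutase, was nearest to the threshold against GFP-only at 0.45 (SE 0.15, adjusted p = 0.062). Apart from Eno2, the rest of lower glycolysis lay between 0.11 and 0.19 and did not pass, with Gapdh at 0.15, Pgk1 at 0.11 and Pkm at 0.11. Ldha was at -0.01 (95% interval -0.31 to 0.28). In the HIF pathway P4ha1 had -0.32 (adjusted p = 0.23), Hif1a and Ero1l had 0.01 each, and Bnip3 had 0.00. Taldo1, the transaldolase of the pentose phosphate pathway, was at 0.35 (adjusted p = 0.24).

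GFP-TTP-AA against GFP-TTP sets the mutant that MK2 cannot phosphorylate against the wild-type protein. The 2 lines also differed in the level of Zfp36, which was higher in GFP-TTP-AA (0.73, SE 0.25, adjusted p = 0.040, Wald test). The part of that difference in the results was not tested. This comparison shares its GFP-TTP-AA libraries with the comparison above and its GFP-TTP libraries with the first comparison. Values of the same gene in these comparisons, of the same or of opposite sign, are therefore not independent. Here 2 members were lower (Hk2 and Pfkm) and 2 were higher (Pgam1 and Egln3) of 36 tested, together 11.1%. Over all 10103 genes tested 10.3% passed, 5.59% higher and 4.66% lower, so the share among the members was near that of all genes. The median over the members was -0.03, beside 0.00 over all genes. With size factors matched to the authors' base means, the median of all genes moved to 0.10 and 77.2% of all calls were higher instead of 54.5%, and the same number of members passed (4).

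Hk2 was lower by a log2 fold change of -0.72 (SE 0.15, 95% interval -1.02 to -0.42, adjusted p = 0.00012) and Pfkm by -0.69 (SE 0.16, adjusted p = 0.00042). Both passed under 6 of 6 alternatives that give a test. Eno2 had -0.64 (SE 0.23, adjusted p = 0.055), and with the median of its chromosome subtracted it passed (-0.68, adjusted p = 0.039).

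Pgam1 had values of 1269, 869 and 1382 in GFP-only macrophages, 1281, 874 and 1387 in the GFP-TTP line and 1737, 1182 and 1881 in the GFP-TTP-AA line. The groups overlapped, because replicate 2 was low in each condition. GFP-TTP-AA was higher than GFP-TTP by a log2 fold change of 0.44 (SE 0.15, 95% interval 0.15 to 0.72, adjusted p = 0.032). The call was lost when p-values were adjusted over the 3 comparisons together (adjusted p = 0.053), and every coding word of Pgam1 has a copy elsewhere.

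Egln3, an oxygen-dependent hydroxylase that marks HIF for degradation and is itself a known HIF target, had values of 126, 133 and 169 in GFP-only macrophages, 97.8, 103 and 130.0 in the GFP-TTP line and 155, 163 and 207 in the GFP-TTP-AA line. The GFP-TTP-AA values overlapped those of GFP-only. The log2 fold change of GFP-TTP-AA against GFP-TTP was 0.67 (SE 0.23, 95% interval 0.23 to 1.11, adjusted p = 0.035). Neither line differed from GFP-only past the threshold, with 0.29 for GFP-TTP-AA (adjusted p = 0.63) and -0.37 for GFP-TTP (adjusted p = 0.56). The call was lost with adjustment over the 3 comparisons together (adjusted p = 0.058) and after subtraction of the median of chromosome 12, which was 0.11 in this comparison (0.56, adjusted p = 0.11). Its homologue Egln1 had 0.14 (95% interval -0.30 to 0.58).

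**Figure D3:**
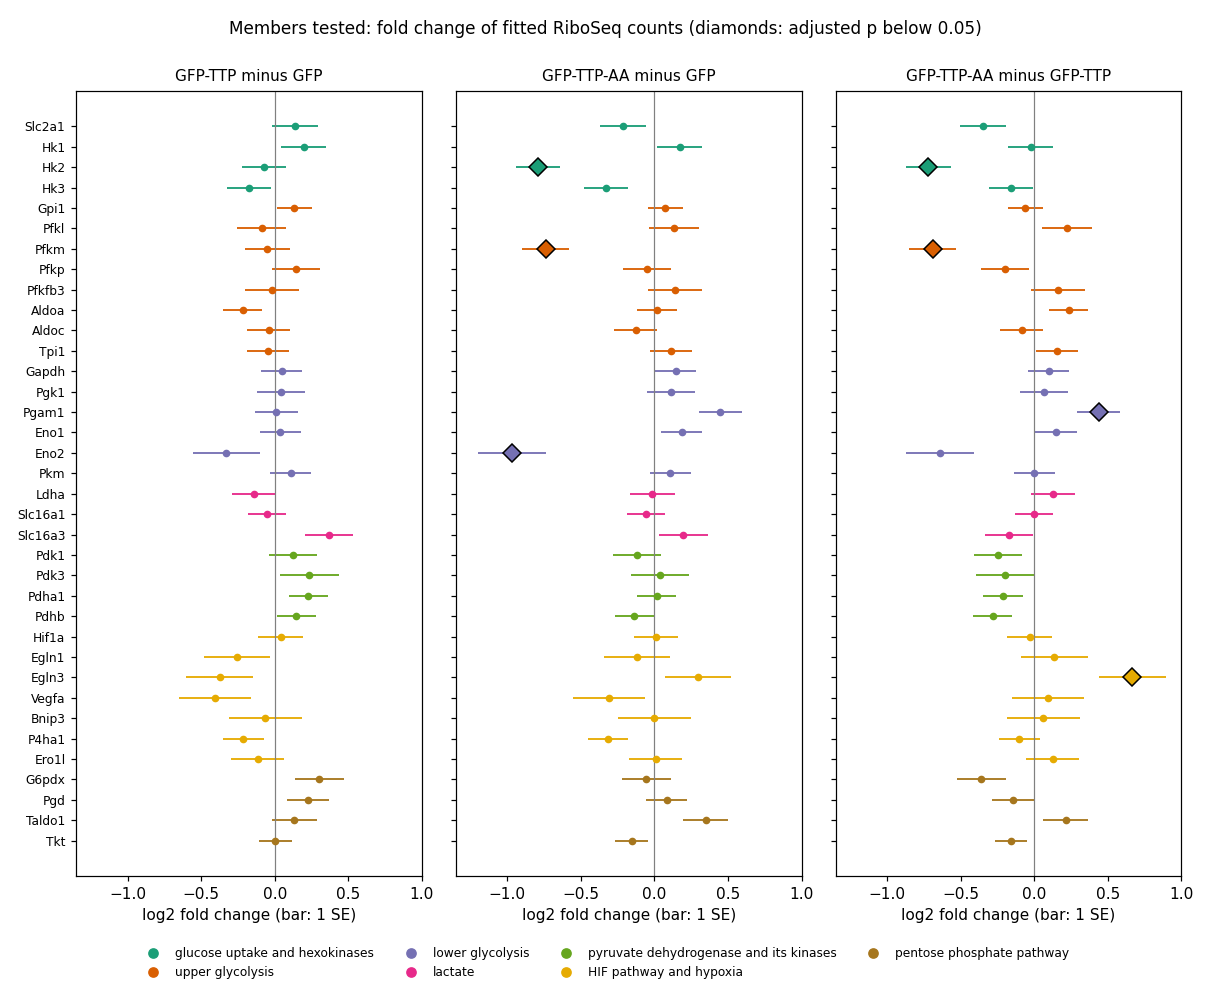
Log2 fold change of the 36 tested members (rows, coloured by role) in each comparison, with bars of 1 SE and diamonds for an adjusted p below 0.05. No diamond appears for GFP-TTP against GFP-only, 3 appear for GFP-TTP-AA against GFP-only (Hk2, Pfkm, Eno2) and 4 for GFP-TTP-AA against GFP-TTP (Hk2, Pfkm, Pgam1, Egln3).

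The members that did not pass in GFP-TTP-AA against GFP-TTP lay between -0.64 and 0.23, and 28 of these 32 within 0.25. Over all genes 5012 of 10103 had values below 0. In GFP-TTP-AA against GFP-only, 2 of the 4 genes of pyruvate dehydrogenase and its kinases lay above 0 and 2 below. In GFP-TTP-AA against GFP-TTP all 4 had values below 0, from -0.28 for Pdhb (adjusted p = 0.17) to -0.20 for Pdk3. Slc2a1 was at -0.35 (95% interval -0.66 to -0.04, adjusted p = 0.15) and G6pdx at -0.36 (95% interval -0.68 to -0.04, adjusted p = 0.16). Hif1a had -0.03 (95% interval -0.33 to 0.27), and Vegfa, Bnip3 and Ero1l had values between 0.06 and 0.12 without passing. Ldha was at 0.13 and Pkm at 0.00. In all, 32 of 37 members passed in no comparison, a count that includes Ldhb, which was not tested. The share of all genes that passed in none was not computed.

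Set against the 3′UTR letters, all 3 members that were lower in GFP-TTP-AA than in GFP-only were among the 13 with TATTTAT, and 0 of the 23 tested members without it passed. The median log2 fold change was -0.05 with and 0.02 without the letters. Against GFP-TTP, 3 of the 13 passed (Hk2 and Pfkm lower, Egln3 higher) and 1 of the 23 (Pgam1 higher), with medians of -0.17 and 0.00. Among the members with the letters were Hif1a and Ero1l with 3 matches each, which had 0.01 and 0.01 against GFP-only. This is a description of few genes without a test. Of all genes tested, 3.02% passed against GFP-only and 10.3% against GFP-TTP. These shares were not computed for all genes with and without the letters of the 3′UTR or the promoter. For the promoter letters ACGTG, 2 of 25 members with them and 1 of 11 without passed against GFP-only, and against GFP-TTP 4 of 25, in both directions, and 0 of 11.

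Ldhb, the isozyme of lactate dehydrogenase found in oxidative tissues, had levels of 5.35, 5.43 and 9.30 in the 3 conditions. It was the only member under the minimum. Without that minimum it was higher in GFP-TTP-AA than in GFP-only (0.80, SE 0.21, adjusted p = 0.011) and than in GFP-TTP (0.78, SE 0.21, adjusted p = 0.0054). Of its coding words 58.1% have copies elsewhere.

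Among the members the replicate term of the model was of a similar size to the condition term. In 19 of 37 members the range over the 3 replicate numbers exceeded the range over the 3 conditions. The share of all genes for which this holds was not computed. In the HIF pathway 6 of 7 genes were higher in replicate 3 than in replicate 1, with log2 differences of 0.53 for Ero1l, 0.41 for Egln3, 0.40 for Hif1a, 0.32 for Vegfa, 0.26 for Bnip3 and 0.23 for Egln1, and -0.05 for P4ha1. The median of these 7 was 0.32, beside -0.01 over all genes, of which 4946 of 10103 were above 0. The 29 further HIF target and oxygen sensing genes did not share this side, with 14 above and 15 below 0 and a median of 0.00. The hexokinases went the other way, at -0.43 for Hk2, -0.36 for Hk3 and -0.27 for Hk1, while Slc2a1 had 0.32. Pgam1 had -0.55 and Pdk3 -0.43 in replicate 2 against replicate 1. The authors' model held a term for library date, which the replicate numbers stand for here, and the differences carry no error and no test.

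**Figure D4:**
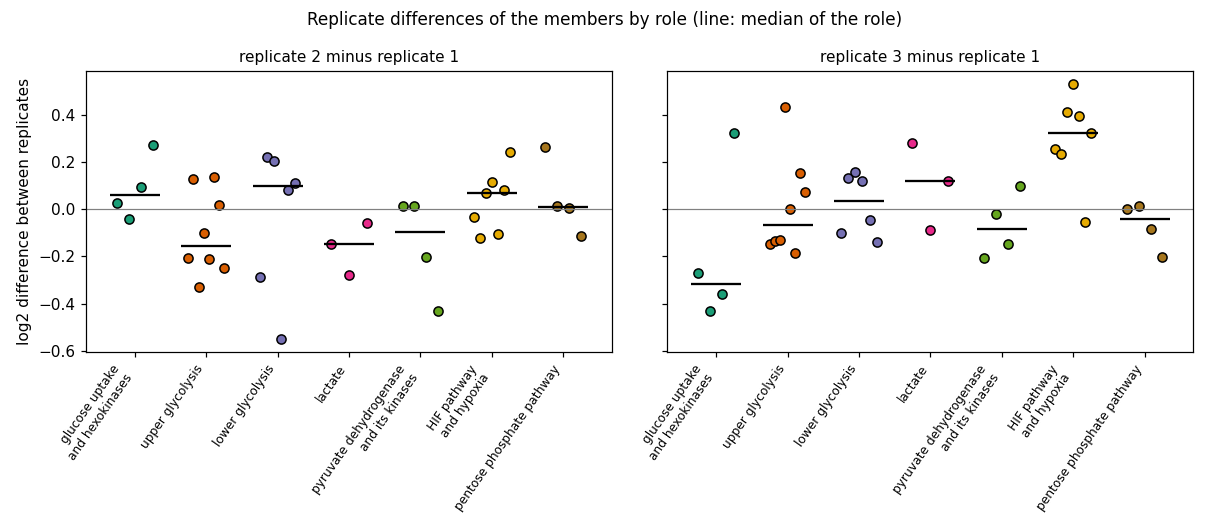
Log2 difference of replicate 2 (left) and replicate 3 (right) from replicate 1 for each tested member, by role, with the median of the role as a line. In replicate 3 the HIF pathway genes lie highest (median 0.32) and 3 of the 4 genes of glucose uptake and hexokinases lie at -0.27 or lower.

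Other genes of the same pathways were taken from lists of further members. In GFP-TTP against GFP-only 2.1% of all genes passed. Of the lists, 0 of 16 other glycolysis genes, 0 of 24 citric acid cycle genes, 1 of 17 further pentose phosphate and glycogen genes and 1 of 29 further HIF target and oxygen sensing genes passed there. The first was Pygl, the liver isozyme of glycogen phosphorylase (-1.17, SE 0.23, adjusted p = 6.34e-05), and the second Arnt, the partner of Hif1a (-0.64, SE 0.18, adjusted p = 0.025). In GFP-TTP-AA against GFP-only 3.02% of all genes passed. Of other glycolysis genes 1 of 16 passed there, Eno3, the muscle enolase, as lower (-0.66, SE 0.20, adjusted p = 0.041). Of the pentose phosphate and glycogen list 1 of 17 passed, Pygl as higher (1.13, SE 0.22, adjusted p = 7.12e-05). Of the citric acid cycle 1 of 24 passed, Idh1, the cytosolic isocitrate dehydrogenase, as higher (0.46, SE 0.14, adjusted p = 0.036). Of the HIF list 3 of 29 passed there, Lox (2.50) and Vldlr (1.10) as higher and Plod2 (-0.98) as lower.

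In GFP-TTP-AA against GFP-TTP more of these genes passed, with 10.3% of all genes as the background. Of the HIF list 7 of 29 passed, 6 as higher and 1 as lower, with a list median of 0.15. The largest were Lox, a lysyl oxidase (2.51, SE 0.25, adjusted p = 1.78e-21, at a level of 36.2 against 6.36), Plod2, a lysyl hydroxylase (-1.10, SE 0.19, adjusted p = 1.04e-06), and Vldlr, a lipoprotein receptor (0.87, SE 0.24, adjusted p = 0.0060). Lox and Plod2 both act on collagen lysines and moved in opposite directions. Of the citric acid cycle 3 of 24 passed, all lower, among them Mdh1 (-0.43) and Fh1 (-0.38), with a list median of -0.08. Of the pentose phosphate and glycogen list 3 of 17 passed, all of them glycogen genes, with Pygl (2.30, SE 0.23, adjusted p = 2.10e-21) and Gbe1 (0.59) higher and Pygb, the brain isozyme of glycogen phosphorylase, lower (-0.42). Of other glycolysis genes 1 of 16 passed, Eno3 (-0.81, SE 0.20, adjusted p = 0.0018).

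Macrophage markers differed between the lines as well. Of 12 listed, 11 were in the table and 10 were tested, and their summed level was 92985 to 110955 in GFP-only, 74264 to 87631 in GFP-TTP and 104408 to 125660 in GFP-TTP-AA libraries. In GFP-TTP-AA against GFP-TTP 4 of 10 passed, all higher, with Emr1, which encodes F4/80, at 1.22 (SE 0.16, adjusted p = 5.34e-12), Fcgr1 at 0.72 and Lyz2 at 0.63. Over all genes 10.3% passed, and 8 of the 10 markers had values above 0 and 2 below. In GFP-TTP against GFP-only 3 of 10 passed, all lower (Fcgr1, Emr1 and Lyz2), beside 2.1% of all genes. Of the 10 values 8 lay below 0 and 2 above. Of the same 10, 1 passed for GFP-TTP-AA against GFP-only (Emr1, higher), beside 3.02% of all genes. Of 17 markers of other cell types 7 were in the table, and 6 of these were below 1 in every library. The neutrophil marker S100a8 was higher in GFP-TTP-AA than in GFP-TTP (1.12, SE 0.25, adjusted p = 0.00025) at a level of 55.8 against 25.6. The part of these markers in the results on the members was not tested.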

How the data were processed

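Ribosome-protected fragments of 9 libraries were analysed from the authors' deposited tables. Per the labels and the study's methods, fragments were isolated with the ARTseq kit, depleted of rRNA, sequenced as 50-base single reads, mapped to mm10 with TopHat (the submitters' notes name TopHat2 2.0.12, Trim Galore, HTSeq and DESeq2 1.6.3), which kept up to 2 alignments of each read, counted per gene and fitted with library date and condition. The table that the authors deposited as normalized counts holds a signal, the count that their model fitted for each gene and library (16932 lines, 16921 identifiers, 1 line without a gene name, 0 zeros). The authors' deposited comparison tables hold log2 fold changes with a log2 standard error, test statistics and p-values. Of these only the standard error, and the base mean signal as an alternative, were used, and the authors' fold changes and p-values were neither used nor compared.

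Size factors were medians of ratios. A level is the geometric mean over the 3 libraries of a condition of fitted value over size factor. The log2 fold change of levels was divided by the standard error (Wald test, two-sided, normal), and p-values were adjusted by Benjamini-Hochberg over all genes with a normalised mean of at least 10 and a standard error (threshold 0.05). These fold changes carry the shrinkage of the authors' model and can understate changes, large ones included. The standard errors come from the same model and reached no more than 0.2504 in each comparison. Those of Bnip3, Vegfa and Zfp36 lay close to this. How far single values were drawn toward 0 was not tested, so a value near 0 and its interval need not bound the true change. Depth enters only through the standard errors, since reads per library were not used here. Intervals are 95% normal intervals. The computation was tested on simulated data. Coordinates and lengths come from GENCODE vM21 on GRCm38, the authors' build, and promoters from RefSeq. Members, lists and the naming rule were chosen with earlier results of these data known. The rule names all members, the values of every member past the threshold, isozyme families by level, at most 3 genes per further list and comparison (those with the largest change), and Zfp36. Python 3.11.15, numpy 2.4.6, pandas 2.3.3 and scipy 1.17.1 were used. The values of 1 gene of the further lists are not reported here.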

Additional observations from a re-analysis of the deposited data

How the results depend on the processing

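The tests were repeated without a minimum mean, with a minimum of 50, with p-values adjusted over the 3 comparisons together, with size factors from library sums or from the authors' base means, and with chromosome medians subtracted, and fold changes also with a pseudocount of 10. Adjusted over the 3 comparisons together, 2 members (Hk2 and Pfkm) instead of 4 passed in GFP-TTP-AA against GFP-TTP. All other counts of genes and members stayed within 1.5 times of their value under the alternatives other than the pseudocount. The counts of genes with the pseudocount are given below. The median of the members stayed near 0 but changed sign with the size factors. With those from the base means it was -0.03 for GFP-TTP against GFP-only, 0.07 for GFP-TTP-AA against GFP-only and 0.07 for GFP-TTP-AA against GFP-TTP, where the medians of all genes were -0.03, 0.07 and 0.10. Of single members, Pgam1 in GFP-TTP-AA against GFP-only passed with that adjustment (adjusted p = 0.046), and the other calls that changed were those of Pgam1, Egln3 and Eno2 given above and those of Ldhb, which is tested only without the minimum. No direction of a called member turned. With base-mean size factors 29.5% instead of 38.8% of all calls in GFP-TTP against GFP-only were higher. Over all genes, with a pseudocount of 10 the number of calls was 197 instead of 305 in GFP-TTP-AA against GFP-only, 143 instead of 209 in GFP-TTP against GFP-only and 784 instead of 1036 in GFP-TTP-AA against GFP-TTP. No paired analysis was possible because the deposited values are fitted with the replicate term and hold no scatter around it. For the same reason the fits that leave out a replicate and the fit without the replicate number were not run. Fits to the observed counts could change the calls.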
